A study of Mus musculus with 6 samples.

Results

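Complement components and regulators were examined as 9 genes in tumour cells that differed in the transcription factor Sox2: C1ra, C1s1, C4b, C2, C3, Cfb, Serping1, Cd55 and Cd59a. The genes were chosen by name, with earlier results of these data known. All 9 are among the 55385 mouse gene rows of the count table. All 9 are also among the 18504 genes that passed the filter on low counts. The 6 RNA-seq libraries came from PDVC57, an established mouse squamous carcinoma line of keratinocyte origin. A group of 3 libraries carries the genotype label Sox2 KO (knockout, the gene disrupted) and the other 3 the label Sox2 overexpression (additional Sox2 supplied). The series' design text describes cells low or high in Sox2 taken from grafted tumours and asks which mechanisms Sox2 turns on that act on neutrophils. Whether each group is 1 clone, how the cells were isolated, the host and its age, and whether animals were pooled are not given in the sources used here, so p-values measure the spread between these libraries, which may in part be technical.

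Complement is a cascade of plasma and cell-surface proteins that marks targets, releases fragments that attract and activate neutrophils, and can pierce membranes. The classical pathway starts when C1q binds antibody or other ligands. The protease C1r then activates C1s, which cleaves C4 and C2. The alternative pathway amplifies C3 cleavage with factor B, and inhibitors in plasma and on the cell surface limit both. The liver makes most plasma complement, and fibroblasts, epithelia and macrophages make some components locally. C3a and C5a, the small fragments of C3 and C5, act on neutrophils.

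The libraries held 31247976 to 38543221 counts over mouse genes. Sox2 had 49, 34 and 25 counts across knockout replicates 1 to 3 and 2566, 3790 and 4095 across overexpression replicates 1 to 3, so its level followed the labels. In the edgeR quasi-likelihood test with Benjamini-Hochberg adjustment, 31.6% of the 18504 tested genes had an adjusted p under 0.05, 18.0% lower and 13.6% higher with overexpression. Of those calls 43.1% were higher. When libraries were scaled to 10 keratinocyte markers instead, 2.01% of calls were higher and the median change over all tested genes, on the log2 scale, went from -0.02 to -1.33. Keratinocyte markers were present in every library, with a summed level of 4124 to 6456 CPM (counts scaled to library size) with knockout and 9307 to 13201 CPM with overexpression. The knockout libraries also held fibroblast markers, whose summed level over 10 genes was 53107 to 81167 CPM, against 283 to 473 CPM with overexpression.

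All 9 complement genes were lower with Sox2 overexpression in the edgeR test (9 of 9, against 18.0% of all tested genes). Every overexpression library lay below every knockout library for each of the 9, which was so for 26.5% of tested genes. The median log2 fold change of the 9 was -6.31, where that of all tested genes was -0.02. Together they took 0.246%, 0.836% and 1.06% of the counts across knockout replicates 1 to 3. They took 0.0103%, 0.00669% and 0.00531% across overexpression replicates 1 to 3. The genes were chosen with earlier results of these data known, so the count describes them and is no independent evidence. Cd55 and Cd59a, at 2 to 11 counts a library with overexpression, passed the filter through the knockout libraries. A higher call was thus not open to these genes. In bulk RNA, fewer cells that express a gene and less RNA per cell cannot be told apart. The labels name no library of unmodified cells. A gene raised with knockout and a gene lowered with overexpression therefore cannot be told apart either.

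**Figure D1:**
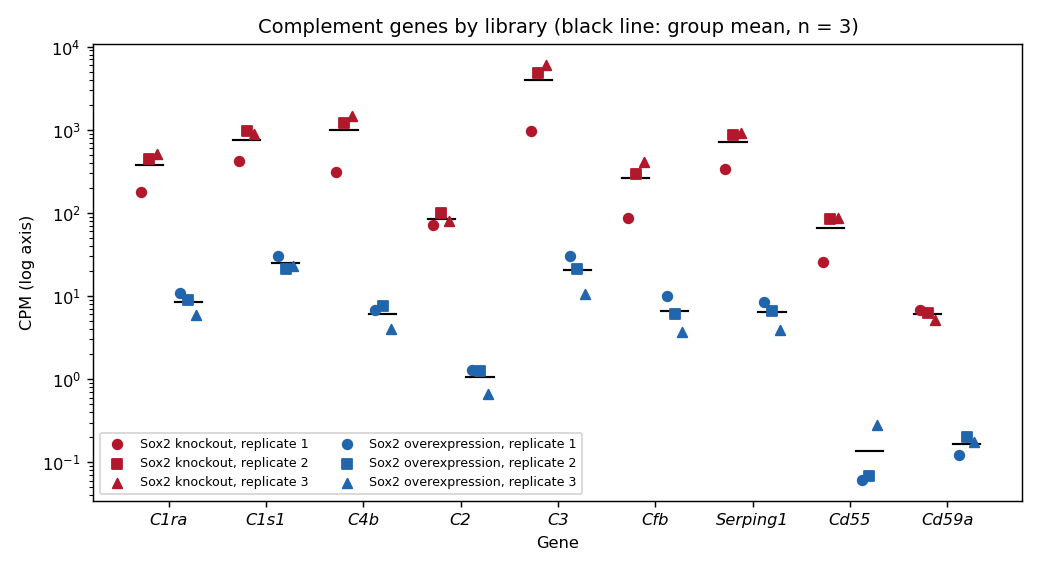
Level of each complement gene in CPM on a log axis, with 1 point for each library, red for Sox2 knockout and blue for Sox2 overexpression, and a black line at each group mean (n = 3). Red and blue points do not overlap for any of the 9 genes, and C3 has the highest mean with knockout (3919.8 CPM) and Cd55 the lowest mean with overexpression (0.136 CPM).

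Start sites are shown for 3 of the genes because these carry the highest level (C3), the largest change (Cd55) and the one match to a Sox core motif (Cd59a). The RefSeq promoter table (GRCm38.p6) held 6 start sites for 5 of the 9 genes, C1s1 having 2, and no entry was found for C2, C4b, Cfb and Serping1. The 250 bases before each start were searched on both strands for CATTGT (Sox core), TTCNNNGAA (STAT), TTGCNNAA (C/EBP) and TATAAA (core promoter box). They were also searched for an NF-kB motif, which is GGGA, any 4 bases and then CC, and for an interferon-stimulated element, which is GAAA, any 2 bases and then GAAA. Capitals mark the matches. Each sequence reads 5′ to 3′ on the gene's strand.
C3 (chr17:57228137-57228386, minus strand): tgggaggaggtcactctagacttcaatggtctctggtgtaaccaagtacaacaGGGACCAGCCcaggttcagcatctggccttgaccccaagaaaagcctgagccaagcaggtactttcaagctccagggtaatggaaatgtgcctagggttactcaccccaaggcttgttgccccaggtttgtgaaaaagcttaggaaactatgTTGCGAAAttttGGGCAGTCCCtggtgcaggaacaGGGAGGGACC
Cd55 (chr1:130462745-130462994, minus strand): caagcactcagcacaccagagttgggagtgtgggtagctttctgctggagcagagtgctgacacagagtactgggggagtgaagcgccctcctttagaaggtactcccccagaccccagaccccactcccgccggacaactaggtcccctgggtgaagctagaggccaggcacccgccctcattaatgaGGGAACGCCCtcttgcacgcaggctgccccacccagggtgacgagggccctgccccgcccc
Cd59a (chr2:104095551-104095800, plus strand): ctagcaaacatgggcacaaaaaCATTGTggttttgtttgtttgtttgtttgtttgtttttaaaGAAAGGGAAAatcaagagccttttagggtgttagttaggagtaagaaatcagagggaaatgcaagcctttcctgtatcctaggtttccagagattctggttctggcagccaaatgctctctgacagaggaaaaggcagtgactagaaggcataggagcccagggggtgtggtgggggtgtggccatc

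The C3 window held 3 matches to the NF-kB motif, which begin 197, 33 and 10 bases before the start, and 1 to the C/EBP motif, which begins 45 bases before it. None of these 4 matches overlaps another. The Cd55 window held 1 NF-kB match, and the Cd59a window held 1 Sox core match and 1 match to the interferon-stimulated element. Over the 6 windows, of which the 2 of C1s1 overlap, NF-kB matched in 3, where 17.6% of 32851 promoter windows of the same length held it. The C/EBP motif matched in 2 of 6 (9.56% of all windows), the Sox core in 1 (10.7%) and the interferon-stimulated element in 1 (2.98%). The STAT motif, found in 7.02% of all windows, had no match in the 6, and neither had the core promoter box, found in 12.4% of all windows. A match describes letters in the window and not binding.

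The proteases of the C1 complex were measured first. C1ra (chromosome 6, 124512405 to 124523443, plus strand, GENCODE M21 on GRCm38) encodes C1r, which activates C1s. Its level was 176, 443 and 512 CPM across knockout replicates 1 to 3 and 10.8, 8.83 and 5.84 CPM across overexpression replicates 1 to 3. Knockout replicate 1 was the low one of its group, and still held over 10 times the level of each overexpression library. The means were 377 ± 178 and 8.48 ± 2.48 CPM (SD, n = 3 each), which is a change of -5.48 on the log2 scale (standard error, SE, 0.46, edgeR adjusted p = 3.84e-05).

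C1s1 (chromosome 6, 124530345 to 124542359, minus strand) lies next to C1ra and encodes C1s, the protease that cleaves C4 and C2. It had 426, 962 and 882 CPM across knockout replicates 1 to 3 and 30.4, 20.9 and 22.7 CPM across overexpression replicates 1 to 3. Knockout replicate 1 was again the low one of its group, and the groups did not overlap. Its means were 757 ± 289 and 24.7 ± 5.03 CPM (SD, n = 3 each), and its log2 fold change of -4.94 (SE 0.35, edgeR adjusted p = 1.53e-05) was the smallest change among the 9. The exons of C1s1 overlap 576 bases of the antisense gene Gm16567.

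C4b and C2 encode the proteins that form the classical C3 convertase. C4b (chromosome 17, 34728380 to 34743882, minus strand) had 306, 1219 and 1455 CPM across knockout replicates 1 to 3 and 6.74, 7.61 and 3.996 CPM across overexpression replicates 1 to 3. It changed by -7.35 on the log2 scale (SE 0.65, edgeR adjusted p = 5.62e-05), from means of 993 ± 607 and 6.12 ± 1.89 CPM (SD, n = 3 each). C2 (chromosome 17, 34862604 to 34898265, minus strand) had 71.1, 99.8 and 80.0 CPM across knockout replicates 1 to 3 and 1.28, 1.25 and 0.658 CPM across overexpression replicates 1 to 3. The knockout libraries were close to each other for C2, unlike for C4b. The C2 means were 83.6 ± 14.7 and 1.06 ± 0.352 CPM (SD, n = 3 each), with a change of -6.31 on the log2 scale (SE 0.30) and the smallest adjusted p of the 9 genes, 2.05e-06 (edgeR).

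C3 is the protein on which all complement pathways converge, and Cfb encodes factor B, the protease of the alternative C3 convertase. C3 (chromosome 17, 57203970 to 57228136, minus strand) was the most abundant of the 9 with knockout. Its edgeR logCPM, the log2 of a mean level over all libraries, was above that of 99.8% of tested genes. The knockout libraries set most of that mean. With overexpression its mean was below the 24.7 CPM of C1s1. It had 952, 4763 and 6044 CPM across knockout replicates 1 to 3 and 30.1, 21.1 and 10.5 CPM across overexpression replicates 1 to 3. Its knockout level varied 6.35-fold between the lowest and highest library, the widest of the 9. The means were 3919.8 ± 2648.8 and 20.6 ± 9.82 CPM (SD, n = 3 each), a change of -7.57 on the log2 scale (SE 0.80, edgeR adjusted p = 0.000162). C3 made up 39.9%, 54.5% and 58.2% of the counts of the 9 genes across knockout replicates 1 to 3 and 30.8%, 29.1% and 20.3% across overexpression replicates 1 to 3.

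Cfb (chromosome 17, 34856374 to 34862518, minus strand) had 86.5, 292 and 412 CPM across knockout replicates 1 to 3 and 9.92, 6.09 and 3.69 CPM across overexpression replicates 1 to 3. As a ratio it had the least distance between groups, with knockout replicate 1 at 86.5 CPM and overexpression replicate 1 at 9.92 CPM. The means were 263 ± 165 and 6.57 ± 3.14 CPM (SD, n = 3 each), a change of -5.33 on the log2 scale (SE 0.63, edgeR adjusted p = 0.000294).

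Serping1 encodes the C1 inhibitor, the plasma serpin that blocks C1r and C1s. Serping1 (chromosome 2, 84765387 to 84775444, minus strand) had 336, 875 and 902 CPM across knockout replicates 1 to 3 and 8.51, 6.66 and 3.92 CPM across overexpression replicates 1 to 3. The inhibitor was thus lower in the same libraries as its target proteases. It changed by -6.79 on the log2 scale (SE 0.50, edgeR adjusted p = 1.86e-05), from means of 704 ± 319 and 6.37 ± 2.31 CPM (SD, n = 3 each).

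Cd55 and Cd59a encode membrane regulators, the first speeding the decay of C3 convertases and the second blocking the membrane attack complex. Cd55 (chromosome 1, 130439027 to 130462744, minus strand) had 876, 2523 and 3170 counts across knockout replicates 1 to 3 and 2, 2 and 11 counts across overexpression replicates 1 to 3. It was nearly undetected in the first 2 overexpression libraries, where 3 counts are 0.0915 and 0.101 CPM. The means were 65.3 ± 34.4 and 0.136 ± 0.124 CPM (SD, n = 3 each), a change of -8.78 on the log2 scale (SE 0.69, edgeR adjusted p = 2.64e-05). Without overexpression replicate 3, the overexpression mean was 0.0643 CPM and the change on the log2 scale was -9.89 (edgeR adjusted p = 0.000139). The size of this difference thus rests on few counts.

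Cd59a (chromosome 2, 104095801 to 104115354, plus strand) was the least abundant member with knockout, with 233, 188 and 185 counts across knockout replicates 1 to 3 and 4, 6 and 7 across overexpression replicates 1 to 3. Its means were 6.04 ± 0.893 and 0.167 ± 0.0413 CPM (SD, n = 3 each), a change of -5.15 on the log2 scale (SE 0.37, edgeR adjusted p = 1.43e-05). Its knockout level varied 1.35-fold, the narrowest of the 9.

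**Figure D2:**
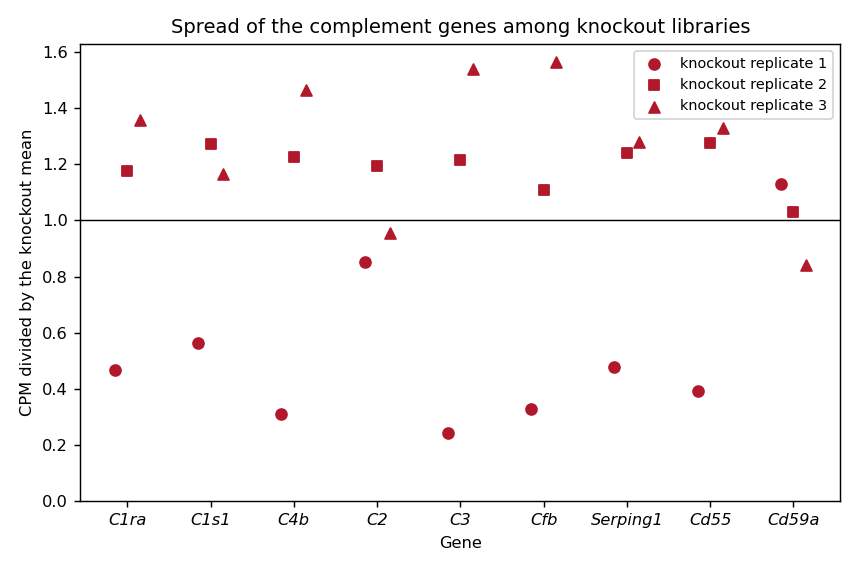
CPM of each gene in each Sox2 knockout library divided by the mean of the 3 knockout libraries, with a line at 1. Knockout replicate 1 is the lowest point for 8 of 9 genes, C2 and Cd59a are the tightest, and C3 spreads most (6.35-fold from lowest to highest).

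The members differed in how they varied among the knockout libraries. Knockout replicate 1 was the lowest library for 8 genes and the highest for Cd59a, and knockout replicate 3 was the highest for C3, C4b, C1ra, Cfb, Serping1 and Cd55. C4b and Cfb varied 4.75-fold and 4.76-fold, Cd55 3.38-fold, C1ra 2.91-fold, Serping1 2.69-fold, C1s1 2.26-fold and C2 1.40-fold. The summed fibroblast markers varied less than C3 over the same libraries, with 53107, 81167 and 76313 CPM across knockout replicates 1 to 3. Among overexpression libraries, replicate 3 was the lowest for C2, C3, C4b, C1ra, Cfb and Serping1 and the highest for Cd55.

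Levels of different genes were compared per kilobase of exon. With knockout, C3 came first at 762 ± 515 CPM per kilobase (SD, n = 3), then Serping1 at 303 ± 137, C1s1 at 242 ± 92.4, C4b at 174 ± 107, C1ra at 127 ± 59.6 and Cfb at 93.3 ± 58.3 CPM per kilobase. Neighbours among these 6 overlapped in their library values. C2 followed at 21.6 ± 3.80, Cd55 at 13.5 ± 7.09 and Cd59a at 3.33 ± 0.493 CPM per kilobase, each below the gene before it in every library. With overexpression, C1s1 came first at 7.89 ± 1.61 CPM per kilobase, above C3 at 4.003 ± 1.91 with no overlap of libraries. C1ra (2.85 ± 0.833), Serping1 (2.74 ± 0.994) and Cfb (2.32 ± 1.11 CPM per kilobase) followed, each overlapping the gene before it. C4b had 1.07 ± 0.331, C2 0.275 ± 0.0909, Cd59a 0.0924 ± 0.0228 and Cd55 0.0279 ± 0.0255 CPM per kilobase. Thus the 2 membrane regulators were the lowest of the 9 in both groups.

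Several members share sequence with a partner gene or have overlapping gene models, to unequal degrees. Of the 31-base stretches in C4b transcripts, 48.3% also occur in C4a, a neighbouring C4-like gene. The shares were 56.9% for C1ra with C1rb, 33.5% for C1s1 with C1s2, 11.2% for Cd55 with Cd55b and 8.23% for Cd59a with Cd59b, and C3 and Serping1 shared none with any other gene. Cfb shared 75.5% and C2 40.2% with Gm20547, an annotated gene whose exons overlap both. How reads of such genes were assigned is not given in the sources used here, so the values of these members carry that uncertainty. With each pair summed before the fit, the log2 fold change was -6.77 for C4, -5.48 for C1r, -4.94 for C1s, -8.78 for Cd55 and -4.29 for Cd59, all with an adjusted p under 0.05 (edgeR).

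The C4 pair changed unequally. C4a had 156, 254 and 266 counts across knockout replicates 1 to 3 and 106, 76 and 131 across overexpression replicates 1 to 3. Its log2 fold change was -1.15 (edgeR adjusted p = 0.0191), and leaving out knockout replicate 2 or overexpression replicate 2 raised the adjusted p to 0.0831 or 0.0558. C4a accounted for 1.47%, 0.685% and 0.499% of the counts of both genes across knockout replicates 1 to 3 and for 32.4%, 25.2% and 45.3% across overexpression replicates 1 to 3. Cd59b had 10, 5 and 26 counts with knockout and 6, 5 and 5 with overexpression and was not tested.

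C4b, Cfb and C2 lie together on chromosome 17 between 34728380 and 34898265, in the class III region of the major histocompatibility complex. Of the other 14 genes within that interval (C4a left out) 6 were tested, and their median log2 fold change was 0.52. Of these, 3 were higher past the threshold, as 13.6% of all tested genes were. They are named here after their values were seen: Cyp21a1, Nelfe and Zbtb12. None of the 6 was lower, with an adjusted or unadjusted p under 0.05, in the edgeR test or by DESeq2. Their median became -0.80 when libraries were scaled to keratinocyte markers, with 4 lower and 1 higher. Zbtb12 overlaps 161 exon bases of C2 on the other strand.

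The rest of the pathway was taken from a list of 45 further complement genes. Of these, 25 were tested, 14 were lower, 1 was higher and 10 did not pass the threshold in the edgeR test. Over all tested genes, 18.0% were lower and 13.6% higher. The median log2 fold change of the 25 was -2.14, against -6.31 for the 9 members and -0.02 for all tested genes. The remaining 20 had counts too low to test. Of the tested genes, C1rb, Hc, C7, Cfi, Vtn and Cpn2 had at most 3 counts in every overexpression library, as 510 of all 18504 did. They passed the filter through the knockout libraries, so a higher call was not open to them. The count of lower genes and the median thus describe these genes and are no independent evidence.

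**Figure D3:**
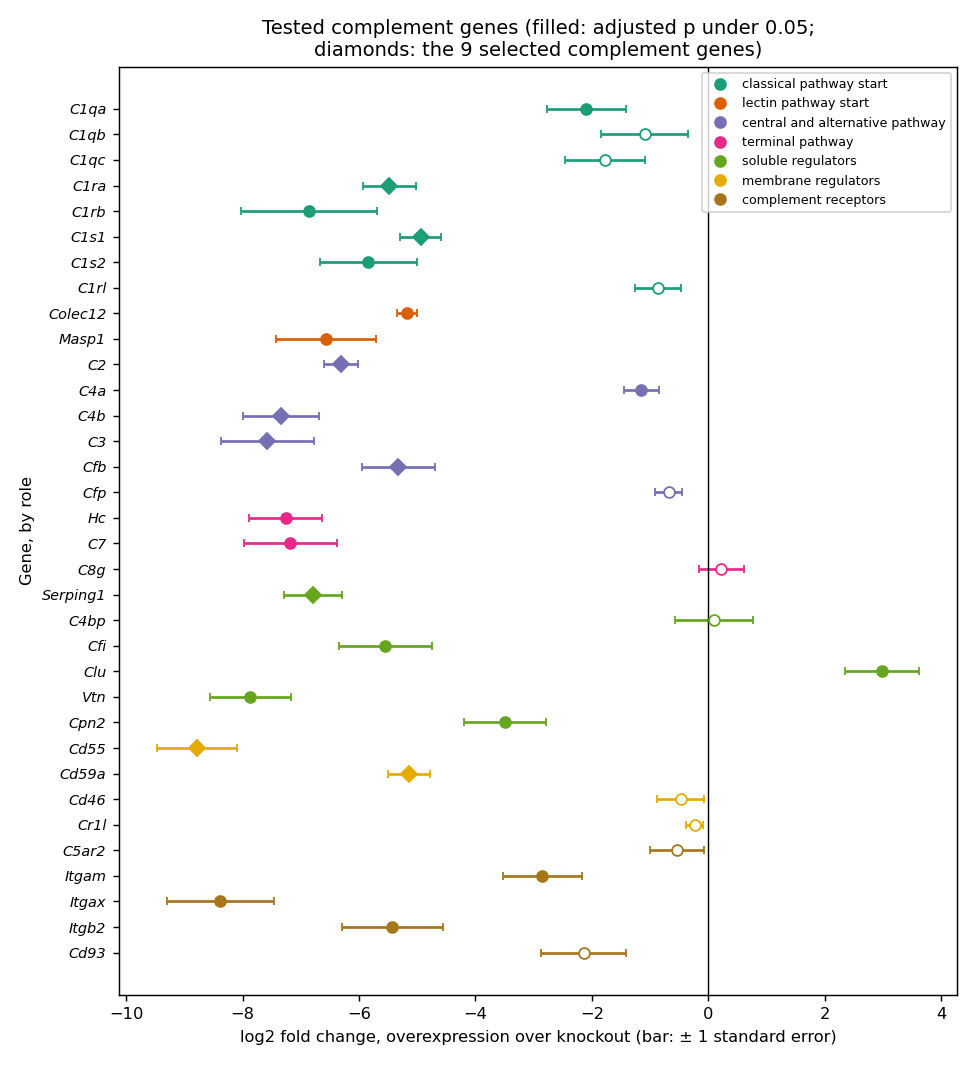
Log2 fold change (overexpression over knockout, ± 1 standard error) of the 34 tested complement genes by role, filled where the adjusted p was under 0.05 and as diamonds for the 9 members. Clu alone lies past the threshold on the higher side, at 2.98, while Cfp, C8g, C4bp, Cd46, Cr1l and C5ar2 lie between -0.68 and 0.22.

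At the start of the classical pathway, C1q had few counts. C1qa had 18, 22 and 50 counts across knockout replicates 1 to 3 and 2, 12 and 6 across overexpression replicates 1 to 3, with a log2 fold change of -2.10 (edgeR adjusted p = 0.0447). That call was lost without knockout replicate 2 (adjusted p = 0.0812) or 3 (0.123) and without overexpression replicate 1 (0.122) or 3 (0.147), and the log2 fold change was -2.95 without overexpression replicate 2. C1qb (-1.10) and C1qc (-1.77) did not pass, with adjusted p-values of 0.300 and 0.0802. Without overexpression replicate 2, C1qc came to -2.62 on that scale (adjusted p = 0.0478). C1rl, a C1r-like gene, stood at -0.87 (adjusted p = 0.127). Mature macrophages are a main source of C1q. Among 10 macrophage markers, 7 were tested, 4 lower and 1 (Cd14) higher, against 18.0% and 13.6% of all tested genes. Their summed levels were 42.2 to 137 CPM with knockout and 25.9 to 66.5 CPM with overexpression. The part of macrophages in the C1q values was not tested. C1rb had no more than 1 count in any overexpression library. Its knockout mean was 15.4-fold the level of 3 counts in the overexpression library of least effective depth. Leaving out knockout replicate 3 took its knockout mean from 1.57 to 0.870 CPM. C1s2 had 51, 112 and 150 counts with knockout and 1, 4 and 0 with overexpression, a log2 fold change of -5.84 that was -7.45 without overexpression replicate 2 and -5.17 without overexpression replicate 3.

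In the lectin pathway, 7 of 9 genes were not tested, among them Mbl1, which had no counts. The other 2 were lower, as 18.0% of all tested genes were. Masp1, a protease of that pathway, had 7292, 3965 and 994 counts across knockout replicates 1 to 3 and 22, 20 and 97 across overexpression replicates 1 to 3. Its knockout libraries were thus ordered the opposite way to those of C3. The log2 fold change was -6.57 (edgeR adjusted p = 0.000562), -5.92 without knockout replicate 1 and -7.50 without overexpression replicate 3. Colec12, a scavenger receptor collectin, had 86.3 ± 3.32 CPM with knockout and 2.38 ± 0.279 CPM with overexpression (SD, n = 3 each), a difference on the log2 scale of -5.17 (edgeR adjusted p = 1.06e-06).

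Cfp encodes properdin, which stabilises the alternative convertase, and had 8.82 ± 2.01 CPM with knockout and 5.49 ± 0.292 CPM with overexpression (SD, n = 3 each). At -0.68 on the log2 scale it missed the threshold (edgeR adjusted p = 0.0574). Cfd, which encodes the protease that cleaves factor B, had at most 6 counts in a library. In the terminal pathway, Hc (complement C5) had 220, 193 and 89 counts with knockout and 1 in each overexpression library. Its knockout mean was 50.2-fold the level of 3 counts in the overexpression library of least effective depth. C7 had 36, 71 and 88 counts with knockout and at most 1 with overexpression, with a knockout mean 19.1-fold that same level. C8g stood at 0.22 on the log2 scale (edgeR adjusted p = 0.688), and the other 4 genes of the terminal pathway were not tested.

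Regulators other than the members did not all move one way. Clu encodes clusterin, a chaperone that also inhibits the terminal complex, and was the gene called higher with overexpression. It had 445, 766 and 1217 counts across knockout replicates 1 to 3 and 3019, 11638 and 3257 across overexpression replicates 1 to 3. All 3 overexpression libraries exceeded all 3 knockout libraries, and replicate 2 stood far above the others. The log2 fold change was 2.98 (SE 0.64, edgeR adjusted p = 0.00742), and 1.89 (adjusted p = 0.0114) without overexpression replicate 2. When libraries were scaled to keratinocyte markers it was 1.55 (adjusted p = 0.0128), and over all alternatives the adjusted p lay between 4.6e-09 and 0.0304. Vtn (vitronectin), Cfi (factor I) and Cpn2 (a carboxypeptidase N subunit) had at most 3 counts in any overexpression library. Their knockout means were 30.8-fold, 6.13-fold and 5.70-fold the level of 3 counts in the overexpression library of least effective depth. Cpn2 itself reached 3 counts, in overexpression replicate 3.

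The membrane regulator Cr1l, the rodent inhibitor of C3 convertases also called Crry, had 41.4 ± 2.71 CPM with knockout and 35.2 ± 2.95 CPM with overexpression (SD, n = 3 each). The difference was -0.24 on the log2 scale (SE 0.14, edgeR adjusted p = 0.241). Per kilobase of exon, Cr1l had 4.004 CPM with knockout, under the 13.5 of Cd55 and above the 3.33 of Cd59a, with which its libraries overlapped. With overexpression it had 3.40 CPM per kilobase, over the 0.0279 of Cd55 and the 0.0924 of Cd59a. Cd46 stood at -0.48 on the log2 scale (edgeR adjusted p = 0.405). Scaled to keratinocyte markers, Cr1l and Cd46 had log2 fold changes of -1.56 and -1.81, with adjusted p-values of 0.000214 and 0.00687, where the median of all genes was -1.33.

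Among receptors for complement fragments, 5 of 8 were tested and 3 were lower, against 18.0% of all tested genes. Itgax, Itgb2 and Itgam encode subunits of the leukocyte integrins that bind iC3b. Itgax had 268, 405 and 1472 counts across knockout replicates 1 to 3 and 1, 0 and 5 across overexpression replicates 1 to 3, and Itgb2 had 167, 239 and 1088 and 7, 20 and 5. Knockout replicate 3 was far above the other knockout libraries for both. Their log2 fold changes of -8.38 and -5.43 (adjusted p = 0.000204 and 0.00167, edgeR) were -7.42 and -4.27 without knockout replicate 3. They were -10.0 for Itgax without overexpression replicate 3 and -6.36 for Itgb2 without overexpression replicate 2. Itgam changed by -2.85 on the log2 scale (edgeR adjusted p = 0.0129), -1.92 without knockout replicate 3, with adjusted p-values of 0.0626 and 0.0508 without overexpression replicates 2 and 3. Its exons overlap 3450 bases of Gm49368 on the same strand. Of 6 T and NK cell markers, 5 were tested and 4 were lower, as 18.0% of all tested genes were. Their sum was 5.66, 11.2 and 51.6 CPM across knockout replicates 1 to 3 and 0.846 to 1.86 CPM with overexpression. C3ar1 and C5ar1, the receptors of C3a and C5a, had at most 15 and 22 counts in a library and were not tested, and Cd93 stood at -2.14 (edgeR adjusted p = 0.0526), or -0.80 without knockout replicate 3. C5ar2 stood at -0.55 on the log2 scale (edgeR adjusted p = 0.400).

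Fibroblast markers differed between groups in the same direction as the 9 complement genes. All 10 were tested and lower with overexpression, as 18.0% of all tested genes were. Their log2 fold changes ran from -9.98 to -2.11 with a median of -7.65, and none was at 0 in any group. Across overexpression replicates 1 to 3 their sum was 283, 331 and 473 CPM, while the 9 complement genes summed to 97.9, 72.8 and 51.8 CPM. Among knockout libraries, replicate 1 was the lowest for both sums. Endothelial markers were also lower (4 of 5 tested), with summed levels of 28.4 to 104 CPM with knockout and 12.9 to 19.6 CPM with overexpression. Of 6 neutrophil markers, 3 were tested and 1 (Csf3r) was lower, with summed levels of 4.54 to 8.74 CPM with knockout and 2.66 to 9.91 CPM with overexpression. S100a9 and Retnlg were at 0 in every overexpression library, and Retnlg had 1 count over the knockout libraries. Ly6g stood at 1.14 on the log2 scale (edgeR adjusted p = 0.184). The part of these cell types in the difference of the complement genes between groups was not tested.

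The complement genes were also set against the summed counts of the 10 fibroblast markers in the same library, a ratio chosen after the data were seen that needs no scaling between libraries. Type I and III collagen transcripts make up most of that sum. Per 1000 fibroblast marker counts, C3 had 17.9, 58.7 and 79.2 counts across knockout replicates 1 to 3 and 106, 63.9 and 22.2 across overexpression replicates 1 to 3, so the groups overlapped. C4b and Serping1 overlapped as well, through overexpression replicate 3 (8.46 and 8.29 counts). Their other overexpression libraries lay above every knockout library. Cd55 overlapped too, but its mean was lower with overexpression, 0.336 ± 0.219 against 0.883 ± 0.351 with knockout (SD, n = 3 each). C1s1 had 8.02, 11.9 and 11.6 counts with knockout and 107, 63.2 and 48.1 with overexpression on this scale, and C1ra, Cfb, C2 and Cd59a were likewise higher in every overexpression library. These 5 of 9 are to be read against 95.1% of all 18504 tested genes that were higher in every overexpression library on this ratio, because the marker sum itself is far lower there. None of the 9 was lower in every overexpression library, as 0.757% of all tested genes were. Because the marker sum sets most of this ratio, no conclusion on a change of the 9 genes is drawn from it. For C1s1 the means were 10.5 ± 2.13 and 72.9 ± 30.8 (SD, n = 3 each). With 3 libraries against 3, an exact two-sided permutation test could not give a p below 0.1, and none was run.

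**Figure D4:**
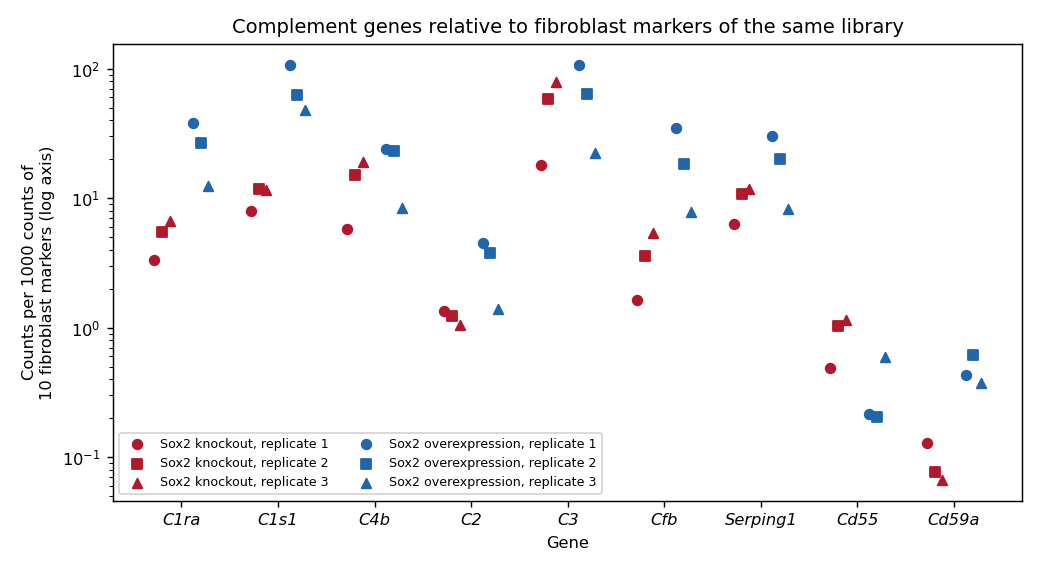
Counts of each complement gene per 1000 counts of the 10 fibroblast markers in the same library, on a log axis, red for Sox2 knockout and blue for Sox2 overexpression. Blue points lie above red ones for C1ra, C1s1, C2, Cfb and Cd59a, and the groups overlap for C3, C4b, Serping1 and Cd55, where 95.1% of all tested genes have every overexpression library above every knockout library on this ratio.

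Genes with the pattern most like C3 and Cd55 were listed by the root mean square difference of centred log2 CPM over the 6 libraries, among 8444 genes of moderate or high level. Nearest to C3 were Saa3 (difference 0.33), Sfrp4 (0.46), Ptx3 (0.48), Rarres2 (0.51) and Efemp1 (0.54), with log2 fold changes from -9.58 to -7.43. Saa3 encodes an acute-phase serum amyloid A protein and Ptx3 a pentraxin. Nearest to Cd55 were Ogn (0.087), Dpp4 (0.21), Podn (0.21), Lama2 (0.22) and Slfn5 (0.23). Their log2 fold changes ran from -9.80 to -7.33, where that of Cd55 was -8.78. The difference between groups dominates this measure, since it is taken over both. The 0.5 CPM added before taking log2 exceeds every overexpression value of Cd55. Small differences from Cd55 therefore do not show equal fold changes.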

How the data were processed

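The authors deposited 1 table of raw counts per Ensembl gene, whole numbers with no normalization, 1 column per library. The submitters' processing notes name kallisto 0.44.0 and mm10 with no role. Counting, strand and annotation are not given in the sources used here. The 96 rows that name no mouse gene (at most 2.23e-05% of counts) were left out.

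Symbols, positions and exon lengths came from GENCODE M21 (GRCm38), matching 55144 of 55385 IDs. Genes were filtered with filterByExpr (minimum count 10, total 15), leaving 18504, normalized with TMM and compared between groups by the edgeR 4.0.16 quasi-likelihood test (R 4.3.3), group as the only term, threshold 0.05 after Benjamini-Hochberg adjustment over all tested genes. Standard errors are the log2 fold change divided by the root of F. CPM uses TMM library sizes. The fit was run on simulated counts with smaller fold changes than those of the members, so that check does not cover changes of their size. Alternatives included DESeq2 1.42.0. A count of 0 allows 3 counts (0.0759 to 0.101 CPM), for counting error only.

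A gene of the complement list is not reported here and was left out of its counts. The members, lists and alternatives were chosen with earlier results of these data known. Named genes are Sox2, the 9 members, their partners, the listed complement genes and the 5 genes nearest to C3 and Cd55 (edgeR logCPM at least 4, predicted genes left out). For that likeness, 0.5 CPM was added before taking log2. The promoter motifs, the comparison of 31-base stretches, the interval searched for neighbouring genes and the ratio to fibroblast markers were chosen after the data were seen.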

Additional observations from a re-analysis of the deposited data

Results flagged for a closer look

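The count table has a row for the reporter mCherry, which the comparisons did not use. It had 8 counts in knockout replicate 3, above the 3 counts that a count of 0 allows, 1 count in knockout replicate 2 and 0 in the other 4 libraries.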

How the results depend on the processing

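Over 14 alternatives, the 9 complement genes stayed lower and past the threshold in all 126 values, with log2 fold changes between -10.2 and -4.29. Among the 25 other tested complement genes, 319 of 347 values kept their direction and side of the threshold, 8 lost the call, 15 gained it and 5 changed sign. The sign changes were those of C8g (-1.02 when scaled to keratinocyte markers, past the threshold there with an adjusted p of 0.0443, and -0.0712 without knockout replicate 3, where leaving out 1 library gave -0.0712 to 0.51) and C4bp (-1.22 with that scaling, -0.306 without knockout replicate 2 and -0.428 without overexpression replicate 1, where leaving out 1 library gave -0.428 to 0.526), neither of which was past the threshold at first. Scaling to keratinocyte markers gave 14589 lower and 299 higher genes in place of 3329 and 2519, and 23 lower other complement genes in place of 14. All 10 scaling markers had log2 fold changes above 0 in the main fit, with a median of 1.19, so scaling to them moves other genes down. The median of all tested genes was -1.33 with this scaling. Why the markers themselves differed between groups was not tested. Leaving out 1 library gave 1446 to 2599 higher genes, 1446 without knockout replicate 2 and 1610 without knockout replicate 3, and 12 to 16 lower other complement genes. With the replicate number as a block, 3177 genes were lower and 2416 higher, and 15 other complement genes were lower, Cd93 among them (adjusted p = 0.0279 against 0.0526). The same-numbered libraries did not deviate together (correlations across genes of 0.0528, 0.0562 and -0.0474), and not every library correlated best with its own number. Depth limits Cd55 and Cd59a with overexpression, at 2 to 11 counts a library.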
